A study of Mus musculus with 12 samples.

Results

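TN 61P/P mouse embryonic fibroblasts (MEFs), in which codon 61 of Nras encodes proline, were compared with TN 61Q/Q MEFs, which carry the wild-type glutamine codon. The comparison rests on the count columns of 6 of the 12 libraries of the series, 3 cultures of each genotype (numbers 21, 26 and 27 for 61P/P and 2, 5 and 6 for 61Q/Q), called replicates 1, 2 and 3 of their group in that order, and it covers all genes. The 61R/R and 61H/H libraries entered the same filter, scaling and fit, so standard errors and adjusted p-values rest on all 12 libraries. The question is how fibroblasts with proline at codon 61 differ in RNA from fibroblasts with the normal residue. TN stands for a Tyr::CreERT2 transgene together with a conditional LSL-Nras allele, a knock-in at the endogenous locus that is silent until Cre removes a stop cassette. Both genotypes were homozygous for the LSL allele and carried Tyr::CreERT2, which is driven by a melanocyte promoter, so in these cells recombination relied on the adenovirus Ad5-CMV-Cre-eGFP that all 6 cultures received. The cells came from mid-gestation embryos labelled C57BL/6, were infected at passage 3 and were harvested 6 days later. Both alleles had been made by genome editing of TN 61R/R zygotes of the C57BL/6J strain and bred for 2 generations to TN 61R/R mice, so each genotype is a separately founded line, and the codon and any other difference between the lines cannot be told apart here. Whether embryos of a group shared a litter is not given in the sources used here, so the spread between cultures may in part be technical.

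NRAS is a small GTPase that relays signals from growth factor receptors to the RAF, MEK and ERK kinases and to phosphatidylinositol 3-kinase while it is bound to GTP. The glutamine at residue 61 positions the water molecule that attacks GTP, and most substitutions there impair GTP hydrolysis. Codon 61 mutants differ in how strongly they drive tumors. Fibroblasts are the matrix-producing cells of connective tissue, and in culture they keep part of the expression of Hox and other patterning genes that marked their position in the body.

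The codon that separates the genotypes is shown within its reading frame, with codon 61 in capitals and codons 55 to 67 in view. The reference sequence (GENCODE transcript on GRCm38, plus strand, chr3:103060252-103060290) lies in coding exon sequence, exon 3 of Nras, with the codon itself at chr3:103060270-103060272.
Nras codon 61: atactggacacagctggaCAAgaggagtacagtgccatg
The edited alleles were not examined, because gene-level counts hold no information on the codon.

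The libraries held 78586677, 73222911 and 85874117 counts in 61P/P and 74585225, 85937109 and 86641284 counts in 61Q/Q, of which the ribosomal precursor Rn45s took 9.83% to 12.3% in 61P/P and 8.89% to 11.7% in 61Q/Q. Levels are given as CPM, counts scaled to the size of each library after TMM normalization. The fibroblast markers Col1a1, Col1a2 and Vim were above 1000 CPM in every culture. Xist, the RNA of the silenced X chromosome, was at 325.8, 0.14 and 0.05 CPM in 61P/P replicates 1, 2 and 3 and at 337.2, 0.27 and 0.11 CPM in the 61Q/Q replicates, and the Y-linked Ddx3y had the opposite pattern, so each group held 1 culture of a female type. Macrophage markers were present in all cultures, with the 16 genes of that list adding up to 370.5, 145.9 and 239.1 CPM in 61P/P and 408.6, 276.4 and 416.5 CPM in 61Q/Q, and 2 of them (Mrc1 and Aif1) were lower in 61P/P. Endothelial markers summed to at most 18.7 CPM in a culture, Cldn5 was at 0 in 4 of 6 cultures, Tyr was at 0 in all of them, and none of 7 tested mesothelial, 10 chondrocyte, 8 smooth muscle and pericyte, 4 osteoblast or 1 erythroid markers passed edgeR's adjusted p (1, 5, 2, 2 and 0 at an unadjusted p under 0.05). Over all genes tested, 6.85% had an adjusted p under 0.05. Of 4 tested adipocyte markers 2 were higher in 61P/P (Cebpa and Fabp4), while Adipoq was under 1 CPM in every culture. Lpl did not pass, at 18.9, 3.52 and 4.53 CPM in 61P/P and 14.3, 9.75 and 11.6 CPM in 61Q/Q. Of 11 neural and glial markers 1 was higher (Stmn2) and 1 lower (Tubb3), of 3 melanocyte markers 1 was higher (Mitf), of 7 skeletal muscle markers 1 was lower (Acta1), of 9 epithelial markers 1 was lower (Krt8), and of 12 fibroblast markers 1 was higher and 2 were lower, the named ones being chosen after their values were seen. Fewer cells of a type and less RNA per cell cannot be told apart in such bulk libraries.

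Of 15759 genes tested with edgeR's quasi-likelihood test, 597 (3.79%) changed, meaning an adjusted p under 0.05 together with a difference of at least 1.5-fold. Of these, 281 (1.78%) were higher and 316 (2.01%) lower in 61P/P. The adjusted p alone was met by 1079 genes (6.85%), 497 higher (3.15%) and 582 lower (3.69%), and list members below are counted at this threshold. The 3 cultures of a genotype all lay on one side of the 3 of the other for 4520 genes (28.7%), with 2188 (13.9%) higher and 2332 (14.8%) lower in 61P/P. An unadjusted p under 0.05 in edgeR was reached by 2145 genes higher and 2123 lower in 61P/P. Every count of markers above and of list members below is to be read beside these shares and counts of all genes. The typical change was small, with a median of 1.99-fold among the higher genes and 2.16-fold among the lower genes, and 25 and 39 genes reached 4-fold in the 2 directions. The median log2 difference over all genes was 0.01. The plot of change against level shows the calls in both directions at low and high expression.

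**Figure D1:**
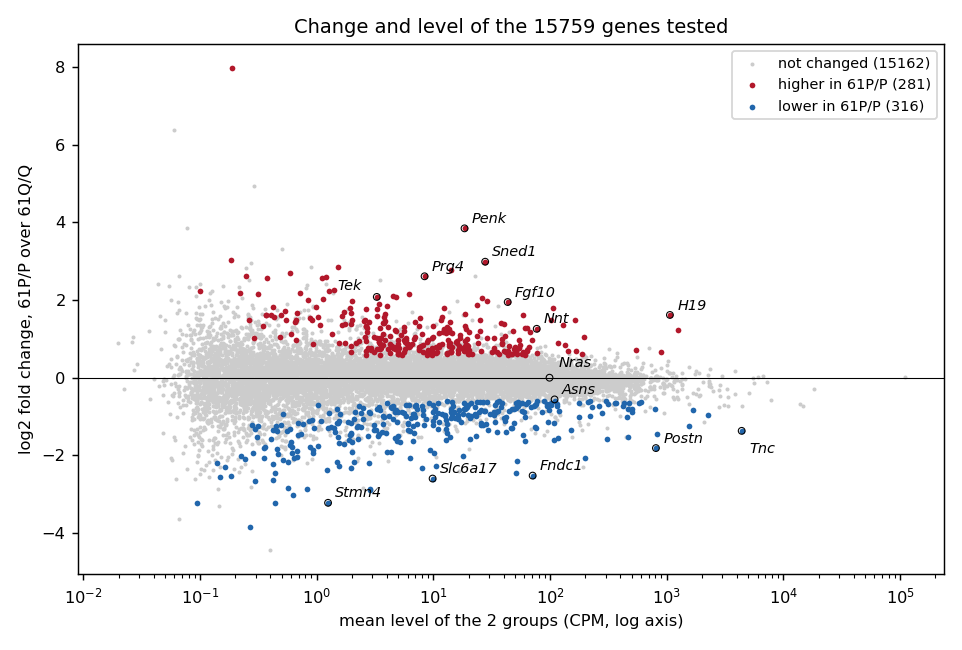
Log2 fold change of 61P/P over 61Q/Q (vertical axis) against the mean CPM of the 2 groups (horizontal log axis) for the 15759 genes tested, 1 point per gene, with the 281 genes called higher in red, the 316 called lower in blue and selected genes circled. Called genes lie in both directions from under 1 to over 1000 CPM, Penk (log2 3.85) and Stmn4 (log2 -3.22) are the farthest from 0 of the labelled genes, and Nras lies at 0.

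All calls that follow depended on single cultures. Without 61Q/Q replicate 3 no gene passed the adjusted p of edgeR (smallest adjusted p 0.0616), although 2981 genes had an unadjusted p under 0.05 and DESeq2 on all libraries called 1097. Without 61P/P replicate 2 the count was 5, without 61Q/Q replicate 1 it was 54, without 61P/P replicate 1 it was 162, and without 61Q/Q replicate 2 it was 1181. Each of the 597 genes kept its direction when any culture was left out, a direction that non-overlapping groups largely fix in advance, and 549 of them still differed by 1.5-fold without 61Q/Q replicate 3. On the first principal component of the 6 libraries (40.6% of the variance) the 61P/P cultures scored -40.9, -27.3 and -19.9 and the 61Q/Q cultures 31.5, 17 and 39.5, and on that axis 61Q/Q replicate 2 was the culture of its group nearest to 61P/P. Because every call was lost without 61Q/Q replicate 3, the adjusted p without it is given for leading genes below.

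Nras itself did not pass the test. It was at 88.08, 100.4 and 108.1 CPM in 61P/P and at 96.57, 104.7 and 95 CPM in 61Q/Q, overlapping ranges with a log2 difference of 0.001 ± 0.08 (SE, adjusted p = 0.997). Hras and the RAF kinase genes Araf and Braf had log2 differences between -0.16 (Braf) and -0.01 (Hras), and none of them passed. None of 31 tested members of the RAS and RAF core list (receptors' exchange factors, GTPase-activating proteins, RAS, RAF, MEK and ERK genes) passed edgeR's adjusted p, against 6.85% of all genes, while the alternatives called at most 2 of them higher and 1 lower and the runs without a culture at most 2 lower. At an unadjusted p under 0.05, 2 were higher and 5 lower, against 2145 higher and 2123 lower among all 15759 genes. Their median log2 difference was -0.07.

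Among 18 tested feedback inhibitors of the ERK pathway, 1 was higher and 2 were lower in 61P/P, with a median log2 difference of -0.11. Dusp4, a nuclear phosphatase of ERK that is itself induced by ERK signaling, had 20.53, 15.9 and 26.32 CPM in 61P/P against 46.78, 41.43 and 50.42 CPM in 61Q/Q. Every 61P/P culture lay below every 61Q/Q culture, and the log2 difference was -1.14 ± 0.16 (SE, adjusted p = 0.0152, and 0.084 without 61Q/Q replicate 3). Dusp16, which acts mainly on JNK and p38, was lower by a smaller margin (log2 -0.31), and Dusp7, an ERK phosphatase of the cytoplasm, was higher (log2 0.34). The remaining 15 members did not pass. Of these, Spry1 (log2 -0.84), Dusp5 (log2 -0.66), Dusp8 (log2 -0.62) and Dusp1 (log2 -0.44) lay lower without overlap and Spred1 (log2 0.26) higher. Dusp8 and Spred1 were chosen after their values were seen. Of the 18 members 6 lay lower and 2 higher without overlap, against 14.8% and 13.9% of all genes. Dusp6, the cytoplasmic ERK phosphatase, had 31.69, 47.43 and 46.98 CPM in 61P/P and 43.42, 58.34 and 44.88 CPM in 61Q/Q, with overlapping groups. The log2 differences of Spry2 and Spry4, inhibitors of receptor tyrosine kinase signaling, were 0.23 and -0.20.

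Of 30 tested immediate early and ETS genes, which encode fast-responding transcription factors and regulators downstream of ERK, 4 were higher and 3 lower in 61P/P, with a median of -0.03. Ier5, an immediate early gene, was the member with the smallest p. It was at 62.34, 72.11 and 76.65 CPM in 61P/P against 118.1, 111.1 and 119 CPM in 61Q/Q, a log2 difference of -0.72 ± 0.09 (SE, adjusted p = 0.0121, and 0.0727 without 61Q/Q replicate 3). Ier3 (log2 -0.64) and Mafk (log2 -0.53) were lower as well. Klf4 was higher at 114.9, 110.5 and 104.1 CPM in 61P/P, against 73.35, 73.76 and 74.11 CPM in 61Q/Q, with less spread within either group than between them. Klf2 (log2 0.71), Etv1 (log2 0.89) and Etv5 (log2 0.56) were the other members that rose. Etv4, a close relative of Etv1 and Etv5, did not pass (log2 -0.03 ± 0.25, SE). Myc, at 47.31, 61.45 and 66.96 CPM in 61P/P and 55.95, 74.05 and 63.95 CPM in 61Q/Q, and Ccnd1, the D-type cyclin, at 320.3, 531.5 and 544 CPM in 61P/P and 325.6, 408.5 and 363.5 CPM in 61Q/Q, had overlapping groups.

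**Figure D2:**
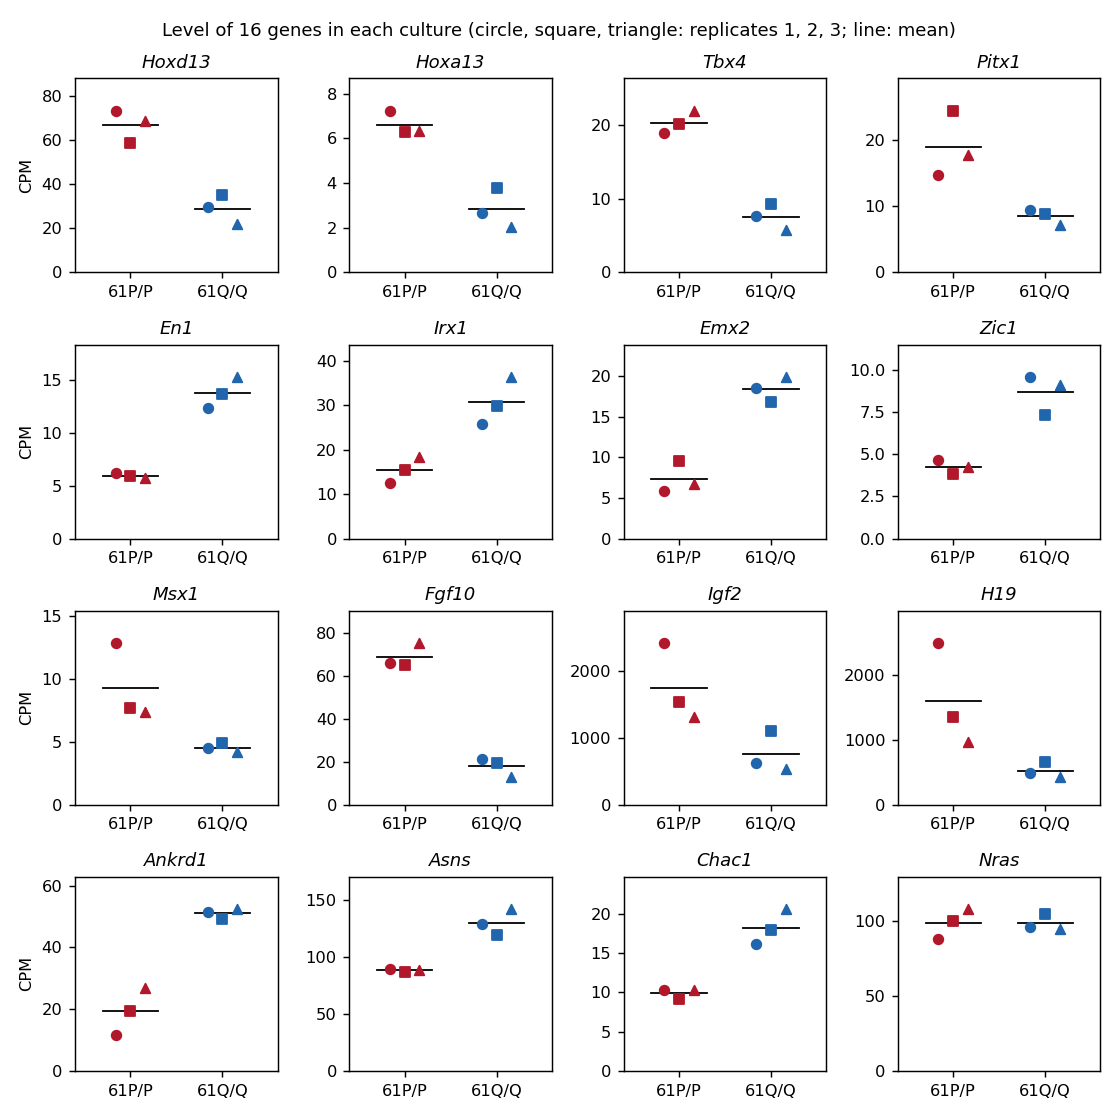
Level in CPM (vertical axis from 0, a scale per panel) of 16 genes in each culture, 61P/P left of 61Q/Q, with circle, square and triangle for replicates 1, 2 and 3 and a line at the group mean. In the panel of Nras the groups overlap, and in the other 15 panels all 3 points of a genotype lie on one side of the other genotype.

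The Hox genes that passed were all higher in 61P/P. Hox proteins are homeodomain factors that set position along the body and limb axes, and the genes at the 5' end of the HoxA and HoxD clusters are known for patterning the far end of the limb. Of 39 tested Hox genes and Hox cluster RNAs, 6 were higher and 0 were lower in 61P/P in edgeR, 12 lay higher without overlap and 0 lay lower without overlap, while the alternatives called 5 to 12 higher and at most 2 lower and an unadjusted p under 0.05 was reached by 14 higher and 2 lower. Over all genes, 3.15% passed as higher and 13.9% lay higher without overlap. The median over the list was only 0.09, and it was -0.01 with the replicate block and -0.21 without 61P/P replicate 1, so the rise was that of particular members. Hoxd13, at the 5' end of its cluster, was at 73.44, 58.68 and 68.85 CPM in 61P/P against 29.73, 35.38 and 21.91 CPM in 61Q/Q. The lowest 61P/P culture was above the highest 61Q/Q culture, with a log2 difference of 1.21 ± 0.23 (SE, adjusted p = 0.0236). Its neighbors Hoxd12 and Hoxd11 were higher by log2 values of 1.53 and 1.15. From the HoxA cluster, Hoxa13 had 7.23, 6.27 and 6.33 CPM in 61P/P against 2.66, 3.76 and 2.05 CPM in 61Q/Q, without overlap. Hottip, a noncoding RNA from the 5' end of HoxA that is known to support transcription of its neighbors, was higher by a log2 value of 1.62 at levels under 1 CPM, and Hoxa7, from the middle of the cluster, by 0.88. Without 61Q/Q replicate 3 the Hoxd13 difference was 1.04 with an adjusted p of 0.115.

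Patterning factors outside the Hox clusters changed in both directions, with 7 of 76 tested members higher and 6 lower in 61P/P and a median log2 difference of 0.19. Together these were 17.1% of the list, against 6.85% of all genes. Tbx4, a T-box factor of hindlimb and lung mesenchyme, was at 18.88, 20.21 and 21.94 CPM in 61P/P against 7.70, 9.23 and 5.78 CPM in 61Q/Q. All 3 of the 61P/P cultures were about alike and above the 61Q/Q range, with a log2 difference of 1.43 ± 0.25 (SE, adjusted p = 0.0188, and 0.101 without 61Q/Q replicate 3). Pitx1, which acts upstream of Tbx4 in the hindlimb and was chosen after its values were seen, had 14.79, 24.51 and 17.76 CPM in 61P/P against 9.50, 8.82 and 7.13 CPM in 61Q/Q. It too was higher without overlap (log2 1.17, adjusted p = 0.0263).

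On the other side, En1, Irx1, Irx2, Emx2 and Zic1 were lower. En1, a homeodomain factor of ventral limb ectoderm and of a lineage of dermal fibroblasts, had 6.20, 5.93 and 5.77 CPM in 61P/P against 12.35, 13.72 and 15.32 CPM in 61Q/Q. The 61P/P cultures were less than 1 CPM apart and below the 61Q/Q cultures, with a log2 difference of -1.21 ± 0.18 (SE, adjusted p = 0.0152, and 0.084 without 61Q/Q replicate 3). Emx2, needed for the urogenital system and the shoulder blade, was at 5.85, 9.58 and 6.77 CPM in 61P/P against 18.54, 16.84 and 19.93 CPM in 61Q/Q. The Iroquois factors Irx1 and Irx2, neighbors on chromosome 13, fell by 0.99 and 0.76 on the log2 scale. Zic1, a zinc finger factor of neural tube and dorsal mesoderm, fell by 1.03. Hoxd13, Hoxa13, Tbx4 and En1 are drawn by culture in the plot of single genes.

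Secreted growth factors and their receptors also moved both ways, with 3 of 44 tested members higher and 5 lower in 61P/P (median -0.06). Fgf10, the mesenchymal ligand that drives outgrowth of limb and lung buds, had 65.97, 65.13 and 75.2 CPM in 61P/P against 21.12, 19.22 and 13.09 CPM in 61Q/Q. This 3.86-fold difference (log2 1.95 ± 0.29, SE, adjusted p = 0.0152, and 0.084 without 61Q/Q replicate 3) left a wide gap between the groups. Fgf5 was higher at lower levels, with 3.10, 5.42 and 7.72 CPM in 61P/P and 1.65, 1.74 and 0.99 CPM in 61Q/Q (log2 1.89). The members that fell were Nrg1, an ERBB ligand (log2 -1.07), Gdnf, a ligand of RET (log2 -1.06), Ntf3, a neurotrophin (log2 -1.91), Vegfa, the main inducer of vessel growth (log2 -0.70), and Hbegf, another ERBB ligand (log2 -0.84). The 1 other member that rose was Figf, a ligand of lymphatic vessels (log2 0.53), and both Hbegf and Figf were chosen after their values were seen.

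In the insulin-like growth factor (IGF) axis, 3 of 17 tested members were higher and 3 lower in 61P/P, with a median of -0.30. Igf2, the fetal growth factor, had 2424, 1538 and 1310 CPM in 61P/P against 631.5, 1103 and 528.5 CPM in 61Q/Q. The groups did not overlap, but 61Q/Q replicate 2 came close to 61P/P replicate 3, and the log2 difference was 1.22 ± 0.28 (SE, adjusted p = 0.0333, and 0.137 without 61Q/Q replicate 3). H19, the noncoding RNA that shares an imprinting control region with Igf2, was at 2491, 1359 and 962.1 CPM in 61P/P against 491, 654.3 and 423.8 CPM in 61Q/Q. The log2 difference of H19 was 1.62 (adjusted p = 0.0251 in edgeR). Both genes were highest in 61P/P replicate 1. Without that culture the log2 differences were 0.92 for Igf2 (adjusted p = 0.0852) and 1.15 for H19 (adjusted p = 0.0584). Igf2 and H19 were the 2 imprinted genes that passed among 40 tested (5%), a share no higher than the 6.85% of all genes. Of the binding proteins that hold IGFs outside the cell, Igfbp4 was higher at 293.2, 258.2 and 235.5 CPM in 61P/P, against 131.9, 144.2 and 101 CPM in 61Q/Q (log2 1.06), and Igfbp6, which prefers IGF2, was higher by a log2 value of 0.75. Igfbp2 had 58.09, 78 and 57.97 CPM in 61P/P against 395.9, 191.3 and 365.3 CPM in 61Q/Q. It was lower without overlap but did not pass (log2 -2.30, adjusted p = 0.0504 in edgeR). Igfbp7 (log2 -0.76) and Pappa (log2 -1.52) were also lower without overlap and did not pass, while Igfbp3 was higher with overlap (log2 1.13). Igfbp2, Igfbp7, Pappa and Igfbp3 were chosen after their values were seen. The receptors Igf1r and Insr were slightly lower (log2 -0.33 and -0.30), and Pappa2, a protease that cleaves IGF binding proteins, fell by 1.58.

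Among 32 tested genes of the BMP pathway, 5 were higher and 3 lower in 61P/P, with a median of 0.27 that was -0.05 without 61P/P replicate 1. Msx1, a homeobox target of BMP signaling, had 12.84, 7.66 and 7.34 CPM in 61P/P against 4.48, 4.92 and 4.15 CPM in 61Q/Q (log2 1.04, adjusted p = 0.0206, and 0.111 without 61Q/Q replicate 3). The ligands Bmp5 and Gdf5 were higher as well, by log2 values of 1.47 and 2.56, and Gdf5, at 3.72, 1.06 and 0.87 CPM in 61P/P and 0.37, 0.37 and 0.23 CPM in 61Q/Q, was led by 61P/P replicate 1. Without that culture its log2 difference was 1.59 (adjusted p = 0.0502). The receptor Bmpr1b fell by 0.95 on the log2 scale and the secreted antagonist Chrd was higher (log2 0.85).

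The Wnt list was split evenly, with 6 of 53 tested members higher and 6 lower in 61P/P (median 0.07). Together these were 22.6% of the list, against 6.85% of all genes. The receptor Fzd4 had 22.47, 20.35 and 20.07 CPM in 61P/P against 11.66, 12.54 and 8.51 CPM in 61Q/Q (log2 0.94, adjusted p = 0.0188). The Wnt enhancer Rspo3 and the nuclear effector Tcf7l2 were higher too, by log2 values of 0.99 and 0.38. The ligand Wnt5a had 141.1, 138.7 and 130.1 CPM in 61P/P against 223.7, 185.2 and 235 CPM in 61Q/Q and so was lower (log2 -0.65), as were the receptor Fzd6 (log2 -0.38) and the inhibitor Nkd2 (log2 -1.23). All 6 named Wnt genes had groups without overlap. None passed without 61Q/Q replicate 3, and DESeq2 and the other full-set alternatives called between 2 and 9 of the list higher and between 3 and 8 lower.

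Angpt1 and its receptor gene Tek, a pair best known from the signaling of vessel-supporting cells to endothelium, were both higher in 61P/P. Angpt1 had 16.32, 19.93 and 16.48 CPM in 61P/P against 5.97, 7.17 and 4.53 CPM in 61Q/Q (log2 1.58 ± 0.19, SE, adjusted p = 0.0121, and 0.0727 without 61Q/Q replicate 3). Tek had 7.10, 4.71 and 4.07 CPM in 61P/P against 0.83, 1.49 and 1.42 CPM in 61Q/Q (log2 2.08, adjusted p = 0.0152, and 0.084 without 61Q/Q replicate 3). Neither gene overlapped between the groups. Of the endothelial markers, Pecam1 and Cdh5 stayed under 1 CPM in every culture, while Kdr, Egfl7 and Emcn were above 1 CPM in every culture. Tek was the 1 endothelial marker of 8 tested that passed.

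Extracellular matrix genes that passed were mostly lower in 61P/P. Of 26 tested basement membrane genes, 8 were lower and 0 higher in 61P/P by edgeR, 12 lay lower and 0 higher without overlap, no alternative and no run without a culture called any higher, and the median was -0.37. Over all genes, 3.69% passed as lower and 14.8% lay lower without overlap. Nid1, a linker protein of laminin and collagen IV, had 810.2, 778.6 and 804.1 CPM in 61P/P against 1016, 997.3 and 1146 CPM in 61Q/Q (log2 -0.40). The laminin chain genes Lamb1 (log2 -0.47), Lamc3 (log2 -1.30) and Lama1 (log2 -1.51), the collagen IV chain gene Col4a6 (log2 -0.81) and the heparan sulfate proteoglycan gene Agrn (log2 -0.73) were lower too. Among 33 tested matricellular and adhesive glycoproteins, 7 were lower and 3 higher. Tnc, a glycoprotein of embryonic and healing tissue, had 2321, 2342 and 2687 CPM in 61P/P against 5691, 5976 and 7288 CPM in 61Q/Q. The 61P/P level was less than the lowest 61Q/Q level by a wide margin, with a log2 difference of -1.37 ± 0.26 (SE, adjusted p = 0.0229, and 0.111 without 61Q/Q replicate 3). Thbs2, at 329.1, 297.6 and 277.7 CPM in 61P/P against 554.4, 606.3 and 657.3 CPM in 61Q/Q, was lower (log2 -1.01), and Tnxb was higher (log2 0.97).

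Of 42 tested metalloproteinases and inhibitors, 6 were lower and 0 higher in 61P/P in edgeR, and no more than 1 was called higher by any alternative. Mmp13, a collagenase, had 3.28, 4.33 and 3.55 CPM in 61P/P against 10.71, 8.47 and 10.51 CPM in 61Q/Q (log2 -1.41 ± 0.19, SE, adjusted p = 0.0122, and 0.0747 without 61Q/Q replicate 3). Mmp14, the membrane-bound enzyme that activates other metalloproteinases, was lower by a smaller margin at high counts, with 387.1, 427.6 and 408 CPM in 61P/P against 573.8, 507.1 and 598.9 CPM in 61Q/Q. Of 29 tested fibrillar and associated collagens 4 were lower and 0 higher, while no alternative and no run without a culture called more than 1 higher. The list includes Col7a1, the anchoring fibril collagen, at 47.44, 65.43 and 66.49 CPM in 61P/P against 161.5, 144.8 and 215.3 CPM in 61Q/Q (log2 -1.54). The contractile list had 7 of 33 tested members lower (over all genes 3.69%) and 0 higher, 24 lower without overlap (over all genes 14.8%) and a median of -0.43. It includes Synpo2 and the non-muscle myosin gene Myh9, which had 3057, 3360 and 3515 CPM in 61P/P against 4540, 4072 and 4688 CPM in 61Q/Q (log2 -0.42). Without 61Q/Q replicate 2, the culture of its group with the lowest level of Myh9, the count of contractile genes lower was 17. The 8 smooth muscle and pericyte markers, of which Cnn1, Des and Myh11 are also on the contractile list and none passed, summed to 587.2 to 640.5 CPM in 61P/P and 673 to 978.2 CPM in 61Q/Q, and their part in the contractile result was not tested.

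Targets of YAP and TEAD that passed were lower in 61P/P with 1 exception. YAP is a transcription coactivator that enters the nucleus when cells are spread or under tension and acts through TEAD factors. Of 22 tested targets and TEAD genes, 9 were lower and 1 higher, 15 lay lower without overlap and 1 higher, and 21 had a log2 difference below 0, with a median of -0.36 (-0.45 to -0.35 over the runs without a culture). Over all genes, 3.69% passed as lower and 14.8% lay lower without overlap. Ankrd1, among the most used reporters of YAP activity, had 11.67, 19.53 and 26.69 CPM in 61P/P against 51.61, 49.26 and 52.33 CPM in 61Q/Q. The 61Q/Q cultures agreed closely and the 61P/P cultures spread below them, with a log2 difference of -1.40 ± 0.24 (SE, adjusted p = 0.0188, and 0.0886 without 61Q/Q replicate 3). Cyr61, a matricellular target, had 408, 444 and 496.2 CPM in 61P/P against 729, 695.4 and 677.2 CPM in 61Q/Q (log2 -0.64). F3, the tissue factor gene, was at 63.83, 64.52 and 69.88 CPM in 61P/P against 172.5, 119.3 and 154 CPM in 61Q/Q (log2 -1.17). Fjx1 (log2 -1.04), Crim1 (log2 -0.58) and Tead1 itself (log2 -0.29) made up the other leading members.

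TEAD factors bind the letters GGAATG. On either strand of RefSeq promoter windows (GRCm38.p6, from 250 bases before to 50 after each start), these letters stood in 8 of the 15 tested list members that had a window (53.3%), among them 5 of 7 that passed (4 lower and Ptpn14, the 1 member called higher, at log2 0.25 and chosen after its values were seen), and in 14.7% of all 32851 windows. Stretches upstream of the start of Ankrd1 and Cyr61 are shown 5' to 3' on the coding strand because their values by culture are given above, with the match in capitals (CATTCC is the reverse complement). The Ankrd1 matches (minus strand, chr19:36120033-36120070 and chr19:36119946-36119983) begin 210 and 123 bases before the start, and the Cyr61 match (minus strand, chr3:145650067-145650104) 103 bases before.
Ankrd1, distal: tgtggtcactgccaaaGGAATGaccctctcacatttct
Ankrd1, proximal: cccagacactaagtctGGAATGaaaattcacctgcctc
Cyr61: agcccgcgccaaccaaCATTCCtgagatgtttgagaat
A match of letters is a description of the window, and binding was not measured.

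Genes of the amino acid response that passed were all lower in 61P/P. ATF4 is a transcription factor made when amino acids run short or protein folding fails, and it induces amino acid synthesis, import and the charging of transfer RNAs. All 37 tested members of the ATF4 list had a log2 difference below 0, 15 passed as lower and 0 as higher in edgeR, against 3.69% and 3.15% of all genes, and 31 lay lower without overlap, against 14.8% of all genes. The median was -0.35, moved between -0.40 and -0.29 when a culture was left out, and no alternative or left-out culture gave a member called higher (at an unadjusted p under 0.05, 33 were lower and 0 higher). The number called lower was 8 to 27 over the other full-set alternatives and 0 without 61Q/Q replicate 3. Averaged over the list, log2 CPM was 5.96, 5.96 and 5.93 in 61P/P and 6.35, 6.34 and 6.53 in 61Q/Q, so the 61P/P cultures were nearly equal and 61Q/Q replicate 3 was the highest.

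**Figure D3:**
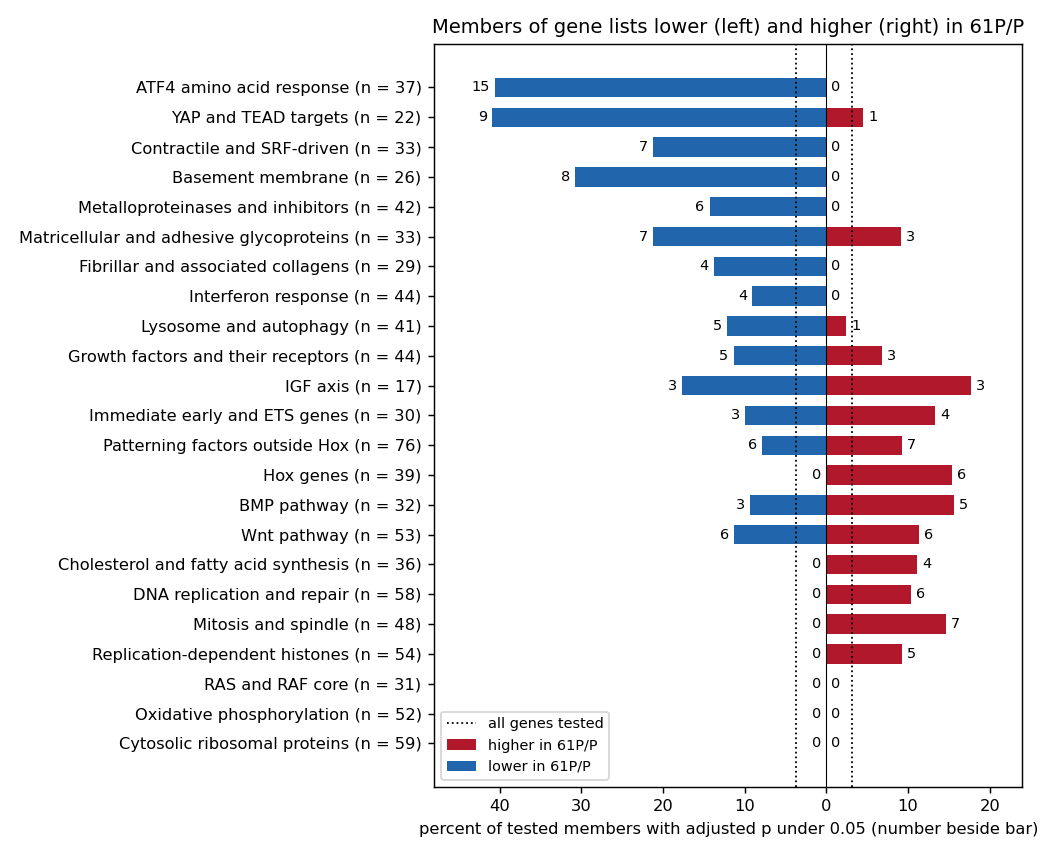
Percent of the tested members of 23 gene lists (rows, n tested in parentheses) with an adjusted p under 0.05, lower in 61P/P to the left in blue and higher to the right in red, with the number of genes beside each bar and dotted lines at the shares over all genes (3.69% lower, 3.15% higher). The ATF4 list (15 of 37) and the YAP and TEAD list (9 of 22) reach farthest to the left, and the RAS and RAF core, oxidative phosphorylation and ribosomal protein lists have no bar.

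Individual members followed the same order. Asns, which makes asparagine, had 89.38, 86.74 and 88.85 CPM in 61P/P against 128.8, 119.2 and 142 CPM in 61Q/Q, a log2 difference of -0.56 ± 0.11 (SE, adjusted p = 0.0251, and 0.116 without 61Q/Q replicate 3). Chac1, which degrades glutathione, had 10.33, 9.12 and 10.25 CPM in 61P/P against 16.13, 17.9 and 20.57 CPM in 61Q/Q (log2 -0.88). In both genes the 61P/P cultures lay close together and the 61Q/Q cultures were higher and more spread. Psph, the last enzyme of serine synthesis, had 14.88, 15.87 and 16.12 CPM in 61P/P against 22.34, 21.44 and 25.88 CPM in 61Q/Q (log2 -0.57). Mthfd2, a mitochondrial enzyme of one-carbon metabolism, fell by 0.61, and the transfer RNA synthetase genes Nars and Tars fell by 0.47 and 0.37 on the log2 scale. Slc7a11, the cystine importer, had 11.76, 9.35 and 10.41 CPM in 61P/P against 16.61, 19.27 and 22.41 CPM in 61Q/Q (log2 -0.89) and was chosen after its values were seen, for the sequence shown next. Atf4 itself did not pass, at 130.4, 144.2 and 146.5 CPM in 61P/P and 161.4, 163.6 and 173.9 CPM in 61Q/Q (log2 -0.24, adjusted p = 0.0572), and was looked up after the list.

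ATF4 binds with C/EBP partners to an element whose core was searched as TGATGNAA on both strands. The core stood in 12 of the 29 tested members with a promoter window (41.4%), in 5 of the 11 of these that passed, and in 3.97% of all windows. Upstream stretches of Chac1 (plus strand, chr2:119351033-119351072, match beginning 193 bases before the start), Slc7a11 (minus strand, chr3:50443656-50443695, 66 bases before) and Gars (plus strand, chr6:55037955-55037994, 30 bases before) are given because these members passed and hold the core. Capitals mark the match, which in Chac1 and Gars is on the other strand.
Chac1: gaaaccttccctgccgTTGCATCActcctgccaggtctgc
Slc7a11: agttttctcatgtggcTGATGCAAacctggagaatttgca
Gars: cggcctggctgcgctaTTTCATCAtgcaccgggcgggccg
Gars encodes the glycine transfer RNA synthetase and was lower by a log2 value of -0.27 (chosen after its values were seen).

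Cell division genes that passed were higher in 61P/P, and their number depended on 61Q/Q replicate 2 and on the method. Averaged over 48 mitosis and spindle genes, log2 CPM was 5.44, 5.29 and 5.38 in 61P/P and 4.58, 5.30 and 4.56 in 61Q/Q, so replicate 2 of 61Q/Q was level with 61P/P and the other cultures of its group were lower. All 48 had a log2 difference above 0, with a median of 0.53, and 7 passed as higher and 0 as lower (43 and 0 at an unadjusted p under 0.05). The full-set alternatives called between 0 and 31 of them higher and 0 lower. Without 61Q/Q replicate 2, 46 passed and the median was 0.83, and without 61Q/Q replicate 3 none passed and the median was 0.38. Cdc20, which activates the anaphase-promoting complex, had 75.92, 66.27 and 74.61 CPM in 61P/P against 36.58, 62.52 and 37.52 CPM in 61Q/Q (log2 0.67, adjusted p = 0.0434, and 0.171 without 61Q/Q replicate 3). Ccna2, the cyclin of S phase and early mitosis, and Racgap1, needed for cytokinesis, were higher by log2 values of 0.60 and 0.59. The letters TTTGAA, the core of the cell cycle genes homology region through which the DREAM complex acts, stood on either strand in 29 of 40 mitosis members with a promoter window (72.5%) and in 17.9% of all windows. They stood in 3 of the 5 of these members that passed.

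In DNA replication genes, replication-dependent histones and sterol synthesis genes too, the list mean of 61Q/Q replicate 2 lay above those of the other 61Q/Q cultures and near those of 61P/P. Of 58 tested replication and repair genes 6 were higher and 0 lower, with a median of 0.38 (54 and 0.60 without 61Q/Q replicate 2). Of 54 tested histone genes 5 were higher and 0 lower, with a median of 0.64 (49 and 1.01 without it). Of 36 tested genes of cholesterol and fatty acid synthesis 4 were higher and 0 lower, with a median of 0.32 (25 and 0.53 without it). Mvd, an enzyme of the mevalonate pathway, had 26.42, 27.73 and 28.28 CPM in 61P/P against 16.63, 22.37 and 17.26 CPM in 61Q/Q. All of these counts were 0 without 61Q/Q replicate 3. Over the full-set alternatives 0 to 21 replication, 0 to 35 histone and 0 to 7 sterol and fatty acid genes were higher, and 0 were lower. Histone genes of one type are near-identical in sequence, so the division of reads among them is uncertain. In contrast, the D-type cyclins, G1 kinases and pocket proteins had 0 of 19 tested members called in edgeR, ribosomal proteins 0 of 59 and oxidative phosphorylation genes 0 of 52. DESeq2 and the other full-set alternatives called 0 in each of these lists too, while 4, 0 and 5 members had an unadjusted p under 0.05 and 5 of the G1 genes passed as higher without 61Q/Q replicate 2. Of the oxidative phosphorylation genes 16 lay higher and 1 lower without overlap, at a median of 0.06. The G1 list had 0 higher and 1 lower without overlap and the ribosomal list 3 and 2, against 13.9% and 14.8% of all genes.

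**Figure D4:**
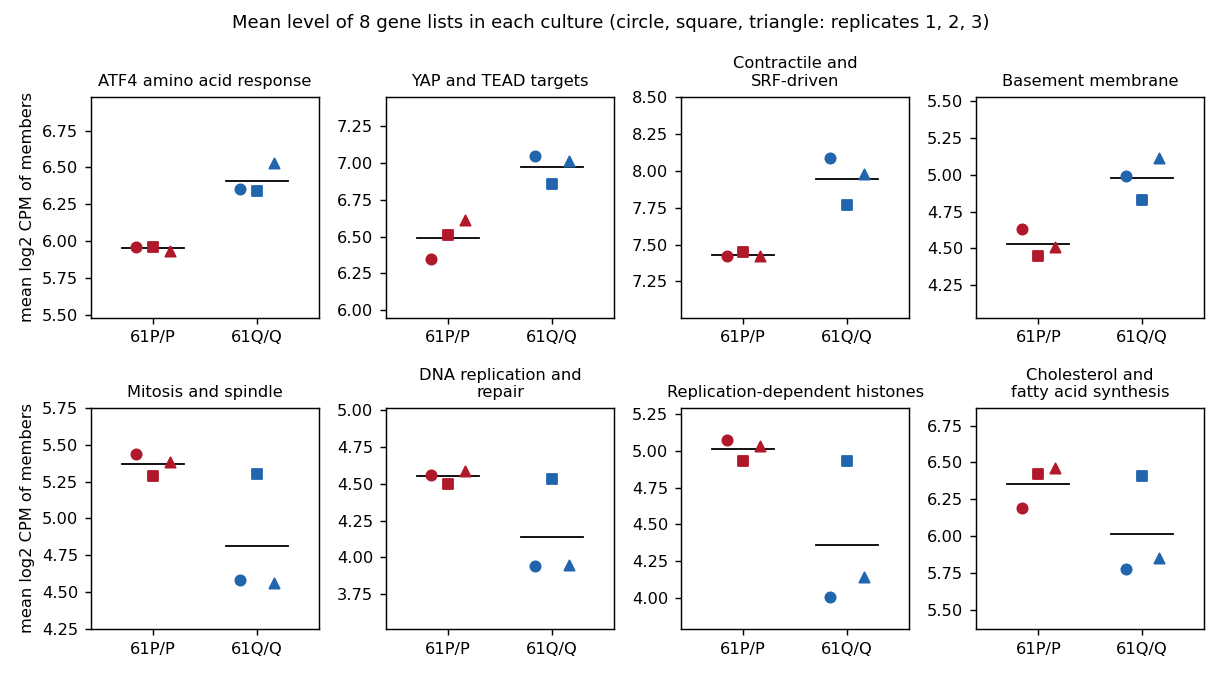
Mean log2 CPM over the members of 8 lists (vertical axis, not from 0, a scale per panel) in each culture, 61P/P left of 61Q/Q, with circle, square and triangle for replicates 1, 2 and 3 and a line at the group mean. In the lower row 61Q/Q replicate 2 lies near the 61P/P cultures (5.30 for mitosis, against 4.58 and 4.56 in the other 61Q/Q cultures), and in the ATF4 panel it lies with its own group (6.34).

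Of 44 tested interferon-stimulated genes, 4 passed as lower in 61P/P and 0 as higher in edgeR or any alternative, and 14 lay lower without overlap and 0 higher. Over all genes, 3.69% passed as lower and 14.8% lay lower without overlap. The median of -0.46 was carried by 61Q/Q replicate 2 and was -0.15 without it. B2m, the light chain of MHC class I, had 171.5, 192.3 and 186.9 CPM in 61P/P against 238, 246.5 and 246.7 CPM in 61Q/Q (log2 -0.41, adjusted p = 0.025, and 0.115 without 61Q/Q replicate 3). H2-T23, a nonclassical MHC class I gene that may share reads with its relatives, fell by 0.97 and the antiviral gene Bst2 by 0.91 on the log2 scale. Ifi27, an interferon-induced mitochondrial protein gene, had 9.84, 19.34 and 22.38 CPM in 61P/P against 38.56, 37.62 and 40.64 CPM in 61Q/Q. All 4 were without overlap. Of the 16 macrophage markers 2 passed as lower, the median log2 difference was -0.73, and the summed level ran from 145.9 to 370.5 CPM in 61P/P and from 276.4 to 416.5 CPM in 61Q/Q. Its part in the interferon result was not tested. The interferon-stimulated response element, searched on both strands, stood in 45.5% of 33 members with a window and in 3.44% of all windows.

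The smallest p of the comparison belonged to Wdfy1, Nnt and Prg4. Nnt, a mitochondrial enzyme that makes NADPH and is disrupted in the C57BL/6J substrain but intact in others, had 111.5, 106.2 and 107.3 CPM in 61P/P against 42.9, 50.44 and 42.39 CPM in 61Q/Q. Wdfy1, a phosphoinositide-binding adaptor of endosomes, had 78.95, 89.21 and 92.84 CPM in 61P/P against 32.97, 41.61 and 32.83 CPM in 61Q/Q. The groups were 2.39-fold (Nnt) and 2.43-fold (Wdfy1) apart, with an adjusted p of 0.00509 each and 0.0616 without 61Q/Q replicate 3. Ide, the insulin-degrading enzyme, went the other way with 83.34, 85.92 and 86.85 CPM in 61P/P against 182.5, 154.5 and 127.8 CPM in 61Q/Q (log2 -0.86, adjusted p = 0.0241). These 3 are on a list of genes known to differ between C57BL/6 substrains, of which 5 were tested, and Cyfip2 (log2 -0.37) did not pass. Differences of substrain and of codon 61 between the lines cannot be told apart here.

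Genes on the chromosome that carries Nras were called somewhat more often than others. On chromosome 3, 48 of 785 tested genes changed (6.11%), the highest share of any chromosome, against 3.67% of the genes elsewhere. Within 2 Mb of Nras 3 of 38 tested genes changed (7.89%) and 6 passed the adjusted p alone (15.8%), against 6.64% of the genes elsewhere. The 6 were Capza1, Slc22a15, Magi3, Mov10, Wnt2b and Cttnbp2nl, all but Capza1 chosen after their values were seen. Capza1, a subunit of the actin capping protein, had 89.31, 88.12 and 89.86 CPM in 61P/P against 144.4, 137.7 and 142.3 CPM in 61Q/Q (log2 -0.67 ± 0.08, SE, adjusted p = 0.0121, and 0.0727 without 61Q/Q replicate 3). Within each genotype the 3 cultures were within 7 CPM of each other. Mov10, an RNA helicase, was higher (log2 0.60), and Wnt2b, a Wnt ligand, was lower (log2 -1.93). The share that changed was 8.51% of 47 genes between 2 and 5 Mb away, 3.88% of 129 between 5 and 10 Mb, 6.22% of 193 between 10 and 20 Mb and 6.35% of 378 beyond 20 Mb, so it did not fall steadily with distance.

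**Figure D5:**
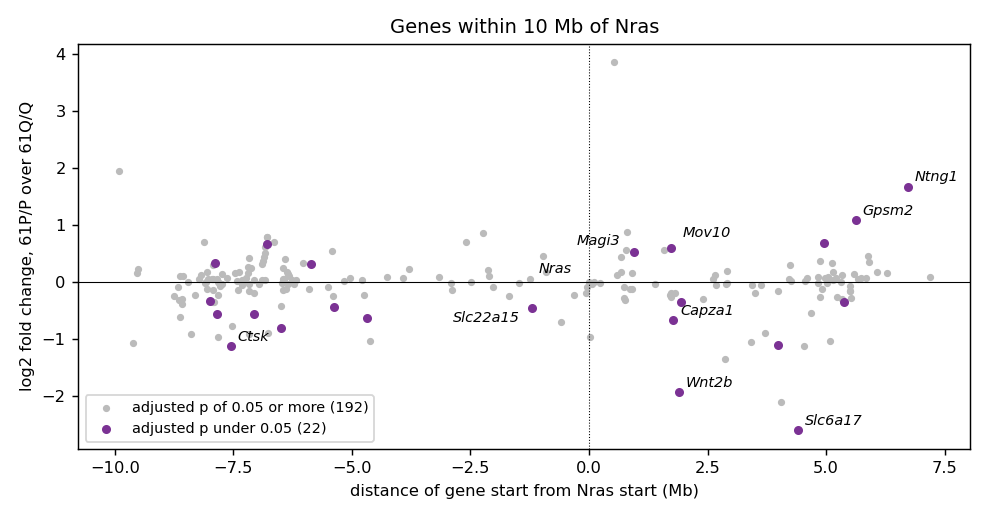
Log2 fold change of 61P/P over 61Q/Q (vertical axis) of tested genes within 10 Mb of Nras against the distance of their start from that of Nras (horizontal axis, Mb), 1 point per gene, with genes at an adjusted p under 0.05 in purple. Genes that passed lie on both sides of Nras and in both directions, from Slc6a17 (log2 -2.59) to Ntng1 (log2 1.67), and Nras lies at 0.

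The genes with the largest rises included secreted signals and matrix proteins at low levels in 61Q/Q. Penk, the enkephalin precursor, had 55.8, 20.28 and 27.54 CPM in 61P/P against 1.79, 4.10 and 1.28 CPM in 61Q/Q, a 14.4-fold difference (log2 3.85 ± 0.72, SE, adjusted p = 0.0229, and 0.115 without 61Q/Q replicate 3). Prg4, the lubricin of joint surfaces, had 17.38, 13.85 and 12.06 CPM in 61P/P against 2.51, 2.83 and 1.75 CPM in 61Q/Q (log2 2.61 ± 0.27, SE, adjusted p = 0.00509). Ace, the angiotensin-converting enzyme (log2 2.60), Meox2, a homeobox factor of limb muscle and mesenchyme (log2 2.27), Ednrb, the endothelin B receptor (log2 2.15), Esrrg, a nuclear receptor (log2 2.09), and Cxcl5, a neutrophil chemokine (log2 2.05), were higher in every 61P/P culture. Pls1, an actin bundler (log2 2.24), rose too. Without 61Q/Q replicate 2 the log2 differences of Penk, Ace and Cxcl5 were 4.50, 3.19 and 2.83. Slc27a3, a fatty acid activating enzyme, had 31.16, 25.27 and 23.38 CPM in 61P/P against 9.95, 11.51 and 9.96 CPM in 61Q/Q (log2 1.34), and Srgap3, a regulator of RAC, rose by 0.82.

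Several of the largest rises were enlarged by a single culture, 61P/P replicate 1. Sned1, an extracellular matrix protein, had 117.8, 18.45 and 11.66 CPM in 61P/P against 7.57, 6.00 and 5.10 CPM in 61Q/Q, and its log2 difference of 2.99 was 1.27 without that culture (adjusted p = 0.113). Sfrp2, a secreted Wnt modulator, had 59.12, 8.02 and 7.34 CPM in 61P/P against 3.79, 4.20 and 2.86 CPM in 61Q/Q, and its 2.78 was 1.09 without it (adjusted p = 0.0441). For Enpp2, which makes lysophosphatidic acid, the values were 2.11 and 1.29, for Hopx, a homeodomain cofactor, 2.86 and 2.07, and for Notum, a Wnt-inactivating enzyme, 2.02 and 1.11. Penk, Ace and Mme belong to a list of neuropeptides and peptidases, of which 4 of 28 tested members were higher and 4 lower. Mme, the peptidase neprilysin, was at 77.55, 31.22 and 28.47 CPM in 61P/P against 15.64, 11.25 and 7.84 CPM in 61Q/Q and had values of 1.98 and 1.37. The adjusted p of Enpp2, Hopx, Notum and Mme without that culture was between 0.0571 and 0.133.

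Of the largest falls, those at higher levels were matrix and adhesion genes. Fndc1, a fibronectin domain protein, had 18.76, 24.87 and 19.53 CPM in 61P/P against 114.9, 101.5 and 145.4 CPM in 61Q/Q (log2 -2.52 ± 0.67, SE, adjusted p = 0.0478, and 0.154 without 61Q/Q replicate 3). Ptprz1, a receptor phosphatase that binds pleiotrophin and tenascins, had 10.11, 17.52 and 20.23 CPM in 61P/P against 85.13, 61.98 and 113.4 CPM in 61Q/Q (log2 -2.44). Crispld2, a secreted glycoprotein, had 19.87, 17.51 and 20.35 CPM in 61P/P against 71.1, 82.33 and 99.48 CPM in 61Q/Q (log2 -2.13). The groups of all of them were far apart. Slc6a17, a neuronal amino acid transporter encoded within 10 Mb of Nras, had 4.14, 1.94 and 2.29 CPM in 61P/P against 17.39, 14.72 and 18.54 CPM in 61Q/Q (log2 -2.59). Stmn4, a microtubule destabilizer of neurons, fell furthest of the genes that averaged 1 CPM or more (log2 -3.22) and was at most 0.37 CPM in 61P/P and 1.82 to 2.64 CPM in 61Q/Q. Galnt16, which starts mucin-type sugar chains, fell by 2.32, and Tfpi, the inhibitor of the tissue factor pathway, by 1.29, at 23.19, 28.26 and 30.59 CPM in 61P/P against 67.34, 63.48 and 69.33 CPM in 61Q/Q. Klhdc4, with 15.3, 15.69 and 14.46 CPM in 61P/P against 24.07, 24.99 and 25.04 CPM in 61Q/Q, spread little within either group (log2 -0.71, adjusted p = 0.0122). The other falls named by the same rule, Sla, Cmah, Dmrt2, Ifi27l2b, Fcrls, Ivl, Tg, Cyp4a12b and Tnfrsf26, were between -2.88 and -2.17 on the log2 scale, and the level of Fcrls, a gene of microglia and macrophages, was lower, as were the macrophage markers Mrc1 and Aif1. Without 61P/P replicate 3 the log2 differences of Fcrls and Ifi27l2b were -2.96 and -3.13.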

How the data were processed

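Raw counts per gene, as the authors deposited them, were used for 6 libraries, 3 a genotype, and the 61R/R and 61H/H libraries entered the same model to estimate the spread. According to the study's methods and the submitters' processing notes, reads of stranded, ribosome-depleted libraries were placed on mm10 by STAR, Picard 2.17.11 marked duplicates, and featureCounts gave the counts. Of 24419 genes 4035 had no count in any of 12 libraries, and 25 symbols turned into dates (0.2323% of counts) stayed in the totals. The size-factor-scaled table was not used. In R 4.3.3 with edgeR 4.0.16, 15759 genes remained after filterByExpr, TMM scaling was applied, and glmQLFit and glmQLFTest compared 61P/P with 61Q/Q in 1 fit of the 12 libraries (biological coefficient of variation 15.7%), with Benjamini-Hochberg adjustment over all genes. A self-test was run on data drawn with known changes, with levels and spread taken from these same counts.

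Named genes were the 15 largest rises and 15 largest falls among changed genes without overlap whose mean reached 1 CPM, the 10 smallest p, 17 genes of the RAS pathway and of sex, rRNA and substrain checks, and the 6 list members of smallest p (or fewer) for each list described, leaving out predicted, pseudo- and small RNA genes. Genes, 52 pathway lists and 13 marker lists were chosen with earlier results of these data known. Lists are given by counts and medians, without a test of the list. Alternatives were RLE and upper quartile scaling, removal of Rn45s, 2 other filters, a fit of 6 libraries, a replicate block, a sex block, DESeq2 1.42.0, limma-voom (limma 3.58.1), glmTreat, the adjusted p alone and the omission of each culture. Sequences came from GENCODE vM21 transcripts and RefSeq promoters (GRCm38.p6). P-values reflect the spread between the 3 cultures of a genotype, taken over all 4 genotypes in the fit. Some genes that the rule names are not reported here.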

Additional observations from a re-analysis of the deposited data

How the results depend on the processing

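Scaling and the removal of Rn45s left the counts of changed genes within 587 to 600. The number of changed genes, of higher genes and of lower genes was 353, 118 and 235 in the fit of the 6 libraries only, 385, 138 and 247 with the replicate block, 1097, 514 and 583 with DESeq2, 1079, 497 and 582 by the adjusted p alone, and 1, 1 and 0 when glmTreat tested against 1.5-fold. Of the 353 genes called in the fit of the 6 libraries only, 290 were among the 597 of the analysis reported. The share of higher genes was 47.1% in the analysis reported, 33.4% with 6 libraries and 35.8% with the block. Deviations of cultures with the same replicate number correlated at 0.344, 0.205 and -0.0141, so the numbers were not taken as pairs. With a culture left out the counts ran from 0 to 1181, from 0 to 672 and from 0 to 509, the lowest without 61Q/Q replicate 3 and the highest without 61Q/Q replicate 2. All 597 genes kept their sign in every alternative that gave them a value. With 3 cultures a group and no gene passing without 61Q/Q replicate 3, single calls are to be read with the values by culture.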

Other observations

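Axon guidance genes, which fibroblasts also use for contact and migration, were called in both directions, with 6 of 61 tested members higher and 6 lower in 61P/P against 3.15% and 3.69% of all genes. Slit3, a secreted repellent, had 155.5, 143.9 and 144.2 CPM in 61P/P against 247.4, 273.3 and 355.6 CPM in 61Q/Q (log2 -0.98, adjusted p = 0.0152, and 0.084 without 61Q/Q replicate 3). Sema3d, another secreted cue, had 67.78, 49.76 and 49.13 CPM in 61P/P against 26.28, 18.62 and 18.13 CPM in 61Q/Q (log2 1.40). Neither gene overlapped between the groups. The netrin receptor gene Unc5c (log2 0.96) and the ephrin ligand gene Efna5 (log2 0.44) were higher, and the semaphorin coreceptor gene Plxna4 was lower (log2 -1.08).

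Of 41 tested lysosome and autophagy genes 5 were lower and 1 higher in 61P/P, with a median log2 difference of -0.12, and 4 of those that passed as lower encode cathepsins. In all, 14.6% of this list passed, against 6.85% of all genes. Ctsk, the collagen-degrading cathepsin of osteoclasts and fibroblasts, had 19.6, 30.28 and 28.31 CPM in 61P/P against 53.54, 48.55 and 67.69 CPM in 61Q/Q (log2 -1.12, adjusted p = 0.0188, and 0.1 without 61Q/Q replicate 3). Ctsl (log2 -0.64), Ctsc (log2 -0.85) and Ctsb (log2 -0.25) were lower too, and Mitf, a driver of lysosomal gene expression in melanocytes and osteoclasts, was the 1 member called higher (log2 0.48). Macrophages also express cathepsins, and 2 of 16 macrophage markers passed as lower, with summed levels that overlapped (145.9 to 370.5 CPM in 61P/P and 276.4 to 416.5 CPM in 61Q/Q). Their part in these values was not tested.

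Among 34 tested chemokines and cytokines, 2 were higher and 3 lower in 61P/P. In all, 14.7% of this list passed, against 6.85% of all genes. Cxcl1, a neutrophil chemokine like Cxcl5, had 6.85, 6.24 and 4.28 CPM in 61P/P against 1.30, 3.09 and 1.18 CPM in 61Q/Q (log2 1.64, adjusted p = 0.0251). Tnfrsf11b, the osteoprotegerin gene, had 26.1, 36 and 31.46 CPM in 61P/P against 100.6, 68.08 and 92.29 CPM in 61Q/Q (log2 -1.48). Lif (log2 -0.89) and Tnfaip3, an inhibitor of NF-kappaB signaling (log2 -0.88), were lower as well.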
